A study of Homo sapiens with 6 samples.

Results

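The MeTDiff caller placed 18431 enriched regions (peaks) on transcripts of PANC-1 pancreatic cancer cells. Of these, 1151 were split over 3 or more blocks and lay inside a gene, away from both of its ends. These multi-block peaks were 6.24% of the list (95% Wilson interval 5.90 to 6.603). A block is a run of bases without interruption, and the stretch of genome skipped between neighbouring blocks is called a gap here. Members were chosen by a block count of 3 or more and by a spliced midpoint at least 500 bp from both ends of the gene span in the RefSeq gene table for GRCh38. The midpoint was counted along the blocks, so that it always fell in one of them. The same distance rule gave 7688 interior peaks of 1 block, the comparison used throughout, and 3448 interior peaks of 2 blocks.

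The study asked which mRNAs carry N1-methylguanosine (m1G) in PANC-1, a human cell line derived from a ductal carcinoma of the pancreas. Polyadenylated RNA was broken into short fragments, and fragments bound by an anti-m1G antibody were sequenced beside input RNA. The design had 1 input and 2 m1G precipitates from cells depleted of TRMT5 by siRNA for 4 days. A further 1 input and 2 m1G precipitates came from control cells, labelled WT control. All 6 libraries are labelled experiment 1. The protocol also names a GFP antibody, for which no library was analysed here. All libraries came from 1 transfected cell line, and whether the precipitates of a condition are separate cultures is not labelled. The 2 deposited peak lists describe the series as a whole and hold no value per library or condition. Every fold, FDR and score below is therefore the authors' own value for a peak, without replicate error and with unknown depth, and TRMT5-depleted cells were not compared with control cells. Intervals cover counting error over peaks only, and several peaks of the same gene share their source.

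m1G carries a methyl group on the base-pairing face of guanine. In tRNAs, TRMT5 places it beside the anticodon, where it helps the ribosome to keep its reading frame. Exons are joined in the mature mRNA after introns are removed, so a caller that works along transcripts can follow a peak across several exons, while a caller that works along the genome meets the same exons as separate islands. MeTDiff works along transcripts, and the MACS2 summits of the other deposited list were called along the genome.

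The letters around a block show what these peaks look like in sequence. Most introns begin with GT and end with AG. RefSeq promoter windows of the same build (GRCh38.p14) happen to cover the edges of some blocks. In windows that belong to another gene, 16 of 16 covered gap starts read GT (100%, interval 80.6 to 100). Of covered gap ends there, 9 of 12 read AG (75.0%, interval 46.8 to 91.1). In windows of the same gene, which lie at annotated gene starts, 16 of 17 gap starts read GT but only 3 of 28 gap ends read AG. Most covered gap ends in those windows thus lacked the usual intron end, and whether these gaps are introns was not tested. Below, capitals mark the block and lower-case letters the bases next to it, read 5′ to 3′ on the strand of the gene. The set is shown because it joins a collagen gene to genes of 3 other kinds, those of RNA processing, the mitotic checkpoint and DNA repair. The first is the block at the 5′ end of a 3-block peak of COL27A1, a fibrillar collagen (chr9:114290889-114290917, plus strand). Those after it are the block at the 5′ end of a 3-block peak of HNRNPK, an RNA-binding protein (chr9:83971882-83972057, minus strand), an internal block of MAD1L1, a mitotic checkpoint protein (chr7:1980453-1980541, minus strand), and an internal block of RAD52, a DNA repair protein (chr12:931220-931321, minus strand).
COL27A1: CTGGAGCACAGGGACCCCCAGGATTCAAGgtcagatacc
HNRNPK: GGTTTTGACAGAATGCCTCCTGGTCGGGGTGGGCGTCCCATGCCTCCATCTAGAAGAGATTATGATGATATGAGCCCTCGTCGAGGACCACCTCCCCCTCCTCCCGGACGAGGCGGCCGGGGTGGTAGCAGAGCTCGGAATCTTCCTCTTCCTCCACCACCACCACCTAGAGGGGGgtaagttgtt
MAD1L1: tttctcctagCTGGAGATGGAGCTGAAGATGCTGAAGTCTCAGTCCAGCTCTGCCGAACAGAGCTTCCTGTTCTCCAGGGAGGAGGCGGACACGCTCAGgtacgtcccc
RAD52: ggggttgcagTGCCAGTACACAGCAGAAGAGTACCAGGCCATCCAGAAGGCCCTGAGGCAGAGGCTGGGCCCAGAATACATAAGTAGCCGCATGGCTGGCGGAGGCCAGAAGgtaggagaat

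Each of these 4 blocks is followed by gt, and both internal blocks are preceded by ag. The COL27A1 block is 29 bp long and holds GG at positions 3, 12 and 21 counted from its 5′ end, a step of 9 bp. Of its 4 GG, overlapping ones included, the other one starts a base before position 12. GG opens every codon for glycine, and collagen proteins repeat a triplet of amino acids that begins with glycine. The HNRNPK block is 176 bp long, the MAD1L1 block 89 bp and the RAD52 block 102 bp. The peaks had folds of 4 (COL27A1), 15.6 (HNRNPK), 4 (MAD1L1) and 7.38 (RAD52), where the fold is the deposited ratio of enrichment, taken as precipitate over input.

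The 1151 multi-block peaks lay in 932 of the 7112 genes that could be named, which is 13.1%. Of these genes, 775 had 1 such peak, 119 had 2 and 38 had 3 or more. Nearly all peaks, 1138, lay in protein-coding genes, with 8 in transcribed pseudogenes and 5 in long noncoding RNA genes. They were spread over both strands, with 568 on the plus and 583 on the minus strand. There were 899 peaks of 3 blocks, 176 of 4, 48 of 5 and 28 of 6 or more, up to 12 blocks in COL18A1. The distance rule set aside 64 peaks of 3 or more blocks near a 5′ end, 11 near a 3′ end and 5 outside the span, and 164 more lay on gene IDs without a single name. Just inside the limit were WDR18 (501 bp from the 3′ end, fold 1.47) and SNAPC2 (509 bp from the 5′ end, fold 5.13), and just outside it were CNPY2 (499 bp, fold 4.12) and LRP3 (497 bp, fold 6.50).

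Internal blocks varied less in length than gaps did. An internal block, with a gap on both sides, must be covered whole, and the 1548 internal blocks had a median of 99 bp (interval 97 to 103), with quartiles of 71 and 139 bp. Of these, 83.9% were 50 to under 200 bp long, and the longest had 626 bp. An internal block must fit within its peak, so long exons are left out of this set. How far that sets the range of lengths was not tested. The 2302 blocks at the ends of peaks, which stop where the peak stops, had a median of 44 bp. Some were slivers, and 284 peaks (24.7%) had an end block under 10 bp. Counting only blocks of 10 bp or more, 928 peaks (80.6%) still had 3. Gaps were longer and far more variable, with a median of 516 bp over 2699 gaps (interval 473 to 560) and quartiles of 159 and 1666 bp. Of the gaps, 762 (28.2%) were 60 to under 200 bp, while 106 (3.93%) were 10 kb or more. A further 39 (1.44%) were under 60 bp, 16 of them under 30 bp, and the shortest was 1 bp. Whether gaps this short are introns was not tested, so some peaks may not be spliced at each gap. A median multi-block peak covered 250 bp of transcript but 2111 bp of genome, and over all such peaks 94.6% of the genomic extent was gap.

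The widest span belonged to LHFPL6, a tetraspan membrane protein gene, whose 3 blocks of 29, 99 and 121 bp lay across 256927 bp of chromosome 13 with a single gap of 222305 bp. Its fold was 7.14. The next largest gaps were 88569 bp in RCOR1, a corepressor gene, 86270 bp in HIBADH, an enzyme of valine breakdown, 81150 bp in SLC39A11, a zinc transporter gene, and 59731 bp in CHCHD6, a gene of mitochondrial cristae. The folds of these 4 peaks were lower, at 2.55, 2.1, 2 and 2.2. At the small end, the shortest internal blocks were 1 bp in TACC3, a spindle protein gene, and 3 bp in the receptor gene NOTCH2. That of PACSIN2 had 6 bp, and those of ANKS6 and ABCF3 7 bp each. Blocks this short were rare, and 38 internal blocks (2.45%) were under 30 bp. Whether they are exons was not tested, since transcript models were not used here.

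Lengths divisible by 3 were more frequent among internal blocks than an even spread gives. Exons outside these peaks were not measured, so the share cannot be called particular to them. Whether a block is coding was not known. Of the 1548, 663 had a length divisible by 3 (42.8%, interval 40.4 to 45.3), where an even spread gives 33.3%. An exon of such a length can be skipped or repeated without shifting the frame. Collagen genes held part of this excess over an even spread. In collagen genes 122 of 127 internal blocks were multiples of 3 (96.1%), against 541 of 1421 in all other genes (38.1%, interval 35.6 to 40.6).

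**Figure D1:**
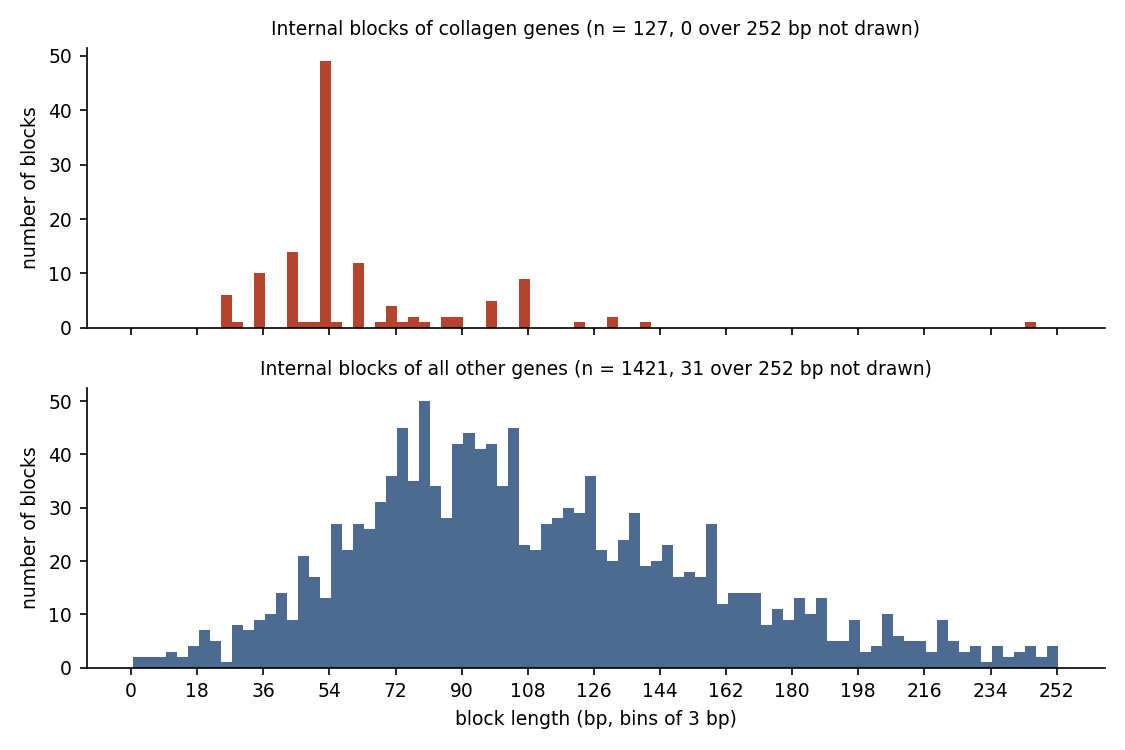
Number of internal blocks (vertical axis) by block length in bp (horizontal axis, bins of 3 bp) for the 15 collagen genes (upper panel, 127 blocks) and for all other genes (lower panel, 1421 blocks, of which 31 longer ones are not drawn). The collagen blocks pile up on single lengths, with 49 of exactly 54 bp, while the others spread around a median of 103 bp.

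The collagens form the clearest gene family among these peaks. Collagen chains make triple helices of the extracellular matrix, and the exons that encode the helix are known to be built from copies of a 9 bp unit, many of them 54 bp long. Of the 16 collagen genes with a named peak, 15 had a multi-block peak, 48 peaks in all. Of the 71 interior peaks in collagen genes, 48 had 3 or more blocks (67.6%), against 1103 of 12216 in other genes (9.03%). Internal blocks had a median of 54 bp in collagen genes and 103 bp in others, and a peak crosses more blocks where these are short. How far block length sets the share was not tested. Collagen internal blocks were multiples of 9 bp in 111 of 127 cases (87.4%, interval 80.5 to 92.1), against 12.4% in other genes, where an even spread gives 11.1%. Exactly 54 bp was the length of 49 collagen blocks (38.6%), against 8 of 1421 others (0.563%). The next most common collagen lengths were 45 bp (14 blocks), 63 bp (12), 36 bp (10) and a length of 2 times 54 bp (9). End blocks of collagen peaks, which the peak edge sets, were multiples of 9 in 6 of 96 cases (6.25%).

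Single collagen genes showed the pattern in full. COL5A2, of fibrillar type V collagen, had 6 multi-block peaks with folds of 1.69 to 5.75, and 20 of its 20 internal blocks were multiples of 9. One of its peaks held internal blocks of 54, 99, 54, 99, 54 and 54 bp in 5′ to 3′ order. COL11A1, another fibrillar collagen, had 6 peaks with folds of 1.43 to 8.91, and 12 of its 17 internal blocks were 54 bp. COL3A1 had 4 peaks of 2.19 to 12.1-fold with 11 of 11 internal blocks divisible by 9. COL1A1, a chain of the main collagen of bone and skin, had 3 peaks of 1.68, 1.78 and 3.75-fold, each with a single internal block of 54 bp. COL18A1, a basement membrane collagen whose helix has interruptions, departed from this, with 11 of 19 internal blocks divisible by 9 and 1 of 54 bp.

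The collagen peaks were long in blocks rather than high in fold. Of the 10 peaks with 8 or more blocks, 7 lay in collagen genes. COL18A1 had 12 blocks at 3.57-fold (chr21:45488431-45495432), COL9A3 11 blocks at 28.1-fold (chr20:62826771-62831194), and COL6A1 (7.63-fold), COL11A1 (4.26-fold) and COL6A2 (3.63-fold) 10 blocks each. The COL9A3 peak, of a cartilage collagen, had 9 internal blocks, of which 7 were 54 bp, 1 was 45 bp and 1 was 72 bp. Over all 48 peaks the median fold was 3.94 (interval 2.90 to 5.00), against 4.71 for multi-block peaks of other genes. The next highest collagen folds were 18 in COL6A1 and 15.5 in another COL9A3 peak. Outside collagen genes, the peaks with the most blocks were a pair in AGRN, the basement membrane proteoglycan agrin, with 9 blocks (5.59-fold) and 8 blocks (8.93-fold), and 1 in PPP1R12C, a myosin phosphatase subunit gene, with 8 blocks (7.70-fold).

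**Figure D2:**
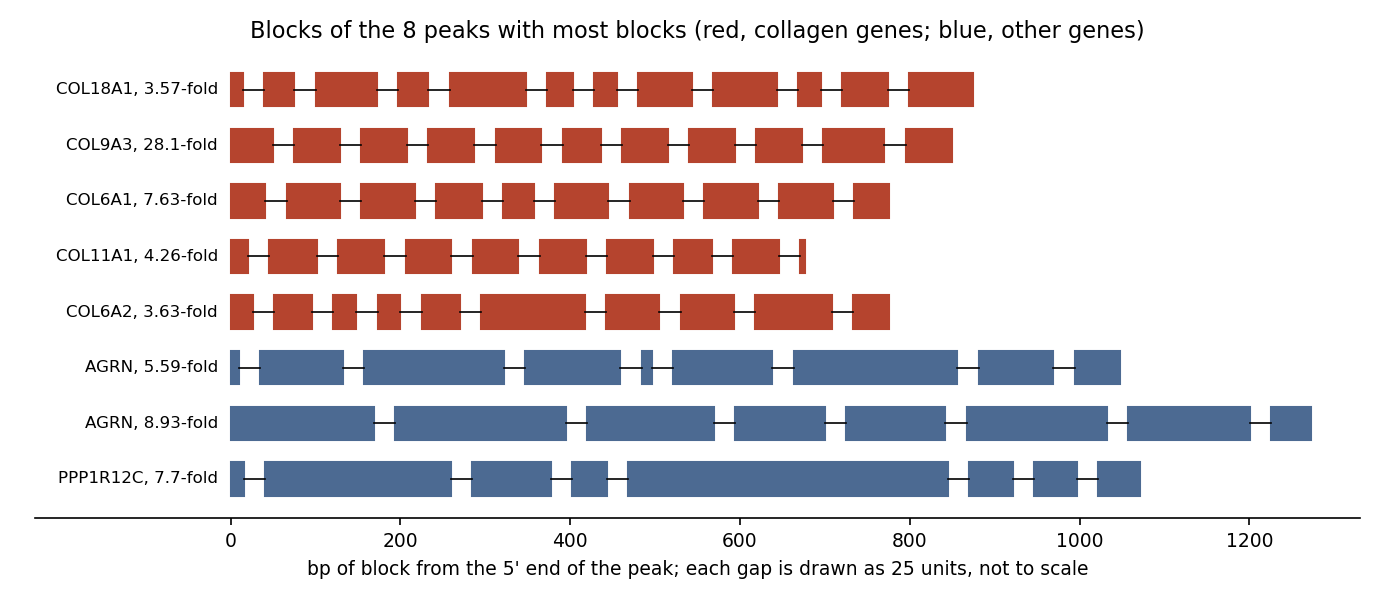
Blocks of the 8 peaks with most blocks, drawn to scale in bp of block from the 5′ end, with every gap drawn as the same short line and therefore not to scale. The COL9A3, COL6A1 and COL11A1 peaks (red) show runs of blocks of 54 or 63 bp, while blocks of COL18A1 and COL6A2 (red) and of AGRN and PPP1R12C (blue) vary more in length.

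Folds of multi-block peaks reached from 1.23 to 61.5. Their median was 4.67 (interval 4.50 to 5.00), against 3.91 (3.83 to 4.00) for 1-block peaks, a difference of 0.76 (0.57 to 1.10). A fold of 10 or more was found in 180 of 1151 multi-block peaks (15.6%, interval 13.7 to 17.9), against 796 of 7688 1-block peaks (10.4%, interval 9.69 to 11.1). Over the whole list that share was 12.7%. By number of blocks, the medians were 4.50 for 3 blocks, 5.10 for 4, 6.90 for 5 and 6.53 for 6 or more. The intervals of neighbouring classes overlapped. The 3448 interior peaks of 2 blocks had a median of 3.79.

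**Figure D3:**
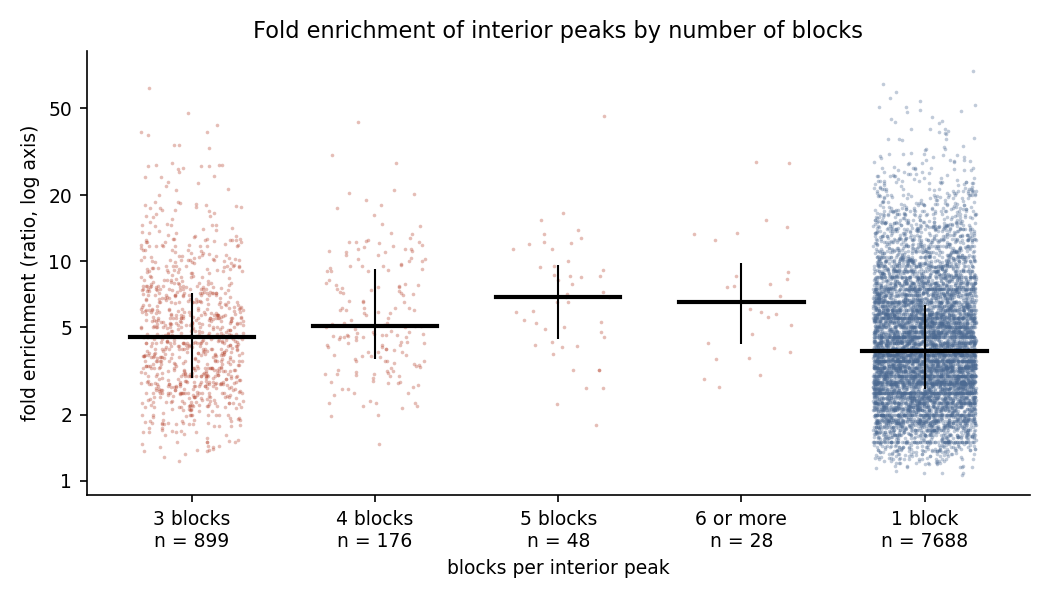
Deposited fold enrichment (ratio, log axis) of each interior peak, grouped by number of blocks. Horizontal bars mark medians and vertical bars the quartiles, and the medians run from 4.50 at 3 blocks to 6.90 at 5, against 3.91 for the 7688 peaks of 1 block.

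Peak length moved with this difference. Multi-block peaks covered a median of 250 bp of transcript, against 101 bp for 1-block peaks, and longer peaks had higher folds in both classes. Within classes of equal length the order turned round. Multi-block peaks of 125 to under 175 bp had a median fold of 3.83, against 4.11 for 1-block peaks of that length. At 275 to under 325 bp the medians were 4.64 for multi-block and 5.98 for 1-block peaks, and at 425 bp or more they were 7.25 and 8.50. The multi-block median was the lower one in all 7 length classes, although the intervals of the pair overlapped in each of the 7. With 1-block peaks weighted to the lengths of the multi-block peaks, the 1-block median was 5.33, and the difference was -0.66. In the 610 genes that had both kinds, the multi-block median was higher in 345, lower in 260 and equal in 5, with a median ratio of 1.15. In 480 of the 610 the multi-block peak was also the longer one. How far length accounts for the difference within genes was not tested.

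**Figure D4:**
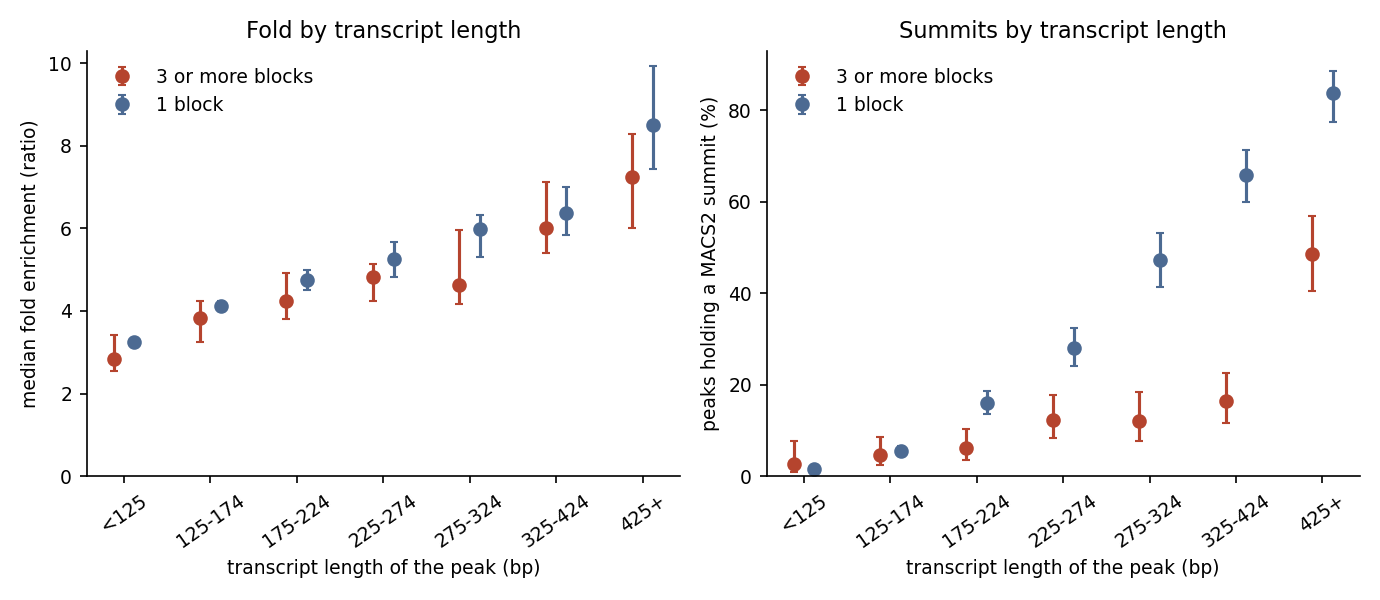
Median fold (left) and percentage of peaks holding a MACS2 summit (right) by transcript length of the peak in bp, for multi-block peaks (red) and 1-block peaks (blue), with 95% intervals. Red lies below blue in all 7 classes on the left and in 6 of 7 on the right, with 16.4% against 65.8% at 325 to under 425 bp and 48.6% against 83.7% at 425 bp or more.

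The highest fold, 61.5, belonged to WSB2, a substrate adaptor of ubiquitin ligases (chr12:118043258-118061167, 3 blocks of 132, 295 and 120 bp). It was the only peak of its gene, and its 295 bp block held a MACS2 summit of score 53.5. ERCC2, a helicase of transcription and nucleotide excision repair, followed at 47.4, without a summit in its blocks of 76, 134 and 141 bp. GSN, the actin-severing protein gelsolin, had a 5-block peak at 46.2-fold with a summit of 28.3 in its 5′ block, while its highest interior 1-block peak reached 2.77. The ephrin receptor gene EPHB4 reached 43.1 and XYLT2, an enzyme that starts proteoglycan sugar chains, 42.0. The XYLT2 peak had blocks of 1, 493 and 54 bp, and the 493 bp block held a summit of 52.1. The cytokine-signalling kinase gene TYK2 and the ubiquitin ligase gene RNF185 both had 38.8. ZNF444, a zinc-finger gene, had 37.6, and ITPK1, an inositol phosphate kinase gene, and HOOK2, an adaptor of microtubule transport, both had 34. Of these 10 peaks, 3 held a summit.

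MACS2 summits, single bases called on the genome, gave a second measure that did not use the blocks. At least 1 summit lay in a block of 161 of the 1151 multi-block peaks (13.99%, interval 12.1 to 16.1), against 858 of 7688 1-block peaks (11.2%, interval 10.5 to 11.9) and 12.4% of the whole list. Per kb of block the order was the other way round, with 0.575 summits in multi-block peaks and 0.724 in 1-block peaks. The share was 11.7% for 3 blocks, 19.3% for 4, 20.8% for 5 and 42.9% for 6 or more. In classes of transcript length, multi-block peaks held summits less often than 1-block peaks from 175 bp upward, with intervals that did not overlap in any of these 5 classes. Under 125 bp the shares were 2.68% for multi-block and 1.54% for 1-block peaks, and at 125 to under 175 bp 4.66% and 5.44%, with overlapping intervals in both. Shares of multi-block against 1-block peaks were 6.12% against 15.9% at 175 to under 225 bp, 11.97% against 47.2% at 275 to under 325 bp and 48.6% against 83.7% at 425 bp or more. Weighted to the same lengths, 1-block peaks had a share of 34.8%, which turned the difference to -20.8 percentage points.

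Multi-block peaks were also grouped by their longest single block and set beside 1-block peaks of that length. This grouping was chosen after the values by transcript length were seen. Multi-block peaks with a longest block of 225 to under 275 bp held a summit in 21 of 57 cases (36.8%, interval 25.5 to 49.8), against 28.1% of 1-block peaks of that length. At 275 to under 325 bp the shares were 9 of 20 (45%) and 47.2%, at 325 to under 425 bp 15 of 21 (71.4%) and 65.8%, and at 425 bp or more 13 of 14 (92.9%) and 83.7%. In these 4 classes the intervals overlapped, as they did at 175 to under 225 bp (19.7% against 15.9%). Below that they did not. At 125 to under 175 bp 37 of 335 multi-block peaks held a summit (11%, interval 8.12 to 14.9), against 5.44% of 1-block peaks (4.47 to 6.62). With a longest block of 50 to under 125 bp, 35 of 526 multi-block peaks held a summit (6.65%, interval 4.82 to 9.11). The share was 1.54% of 1-block peaks (1.201 to 1.97), which were 91 to 101 bp long in this class. The multi-block peaks of the class had a larger whole transcript length, with a median of 151 bp. Multi-block peaks with a longest block under 50 bp were not in any class.

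Within multi-block peaks, summits were densest on long blocks. The 161 peaks held 182 summits, and 14 of these peaks held summits in several blocks. Blocks of 250 bp or more made up 9.12% of block length and held 48 summits (26.4%), a density of 1.66 per kb (interval 1.23 to 2.205). Blocks under 50 bp made up 10.6% of the length and held 5 summits (2.75%), 0.149 per kb. By position, internal blocks held 113 summits (62.1%, interval 54.9 to 68.8) on 54.1% of the length, blocks at the 5′ end 41 (22.5% on 22.8%) and blocks at the 3′ end 28 (15.4% on 23.0%). The densities were 0.660, 0.568 and 0.384 per kb, and the intervals of all 3 positions overlapped. The genomic extents of all multi-block peaks held 609 summits, and 427 of them (70.1%, interval 66.4 to 73.6) lay in gaps, which made up 94.6% of that extent. What lies under these summits was not tested.

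**Figure D5:**
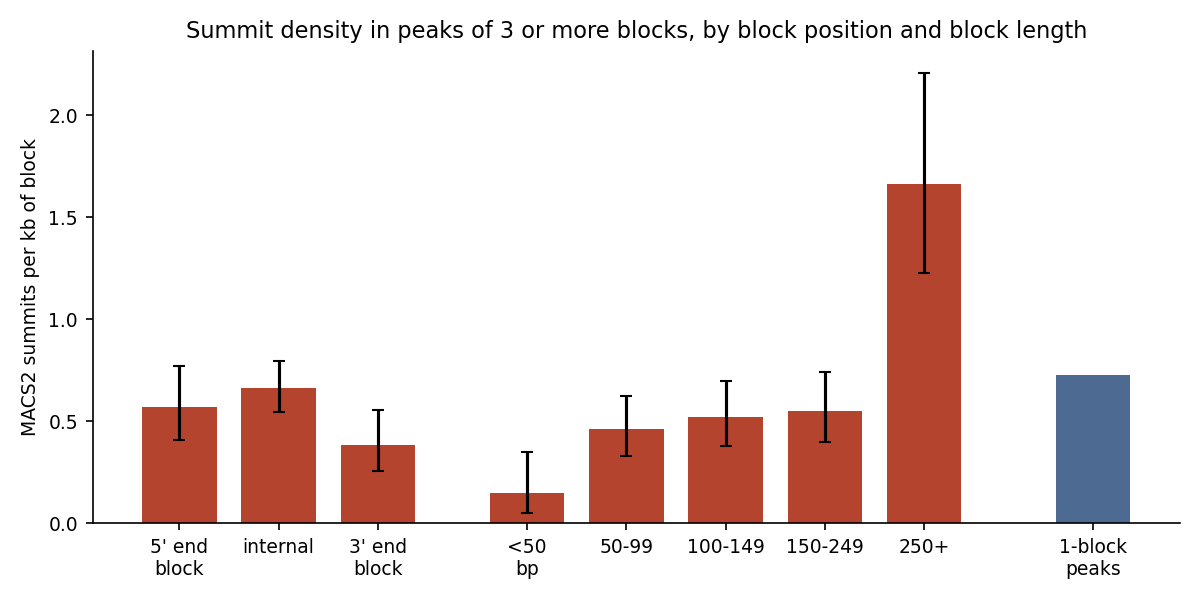
MACS2 summits per kb of block in multi-block peaks (red) by position of the block and by block length in bp, with 95% Poisson intervals for counting error, beside the value for interior 1-block peaks (blue, no interval drawn). Blocks of 250 bp or more reach 1.66 per kb, against 0.149 for blocks under 50 bp and 0.724 for 1-block peaks.

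The highest summit in a multi-block peak was in IGFBP2, a binding protein of insulin-like growth factors, with a score of 97.8 in the 483 bp block of an 18.5-fold peak. RYR1, a calcium release channel of muscle, followed with 85.0 in a 721 bp block (17.5-fold), and PLEKHG2 with 75.3 in a 272 bp block (26.7-fold). The lipid carrier gene APOE had 71.8 in a 714 bp block of a 6.05-fold peak. KDM5C, a histone demethylase gene on the X chromosome, had 71.2 in a block of 316 bp, and ATP2A2, a calcium pump gene, 70.7 in one of 712 bp. All 6 summits lay in the longest block of their peak. The score is a deposited −log10, of either a p-value or a q-value, and its median over summits in multi-block peaks was 20.01, against 16.4 over the list.

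NES, the intermediate filament gene nestin named in the title of the study, had 1 multi-block peak (chr1:156673484-156677258, 18.2-fold, FDR 2.82e-07). Its 3 blocks of 777, 125 and 44 bp were separated by gaps of 1141 and 1688 bp, and its midpoint lay 622 bp from the 5′ end of the gene, close to the limit. It held 2 summits, the higher of 21.7 in the 777 bp block. The highest interior 1-block peak of NES had a fold of 12.9. TRMT5 had no multi-block peak. Of other tRNA methyltransferase genes, TRMT1, which acts on another guanine of tRNAs, had a 4-block peak at 7.88-fold, and TRMT2A a 3-block peak at 1.81-fold.

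Matrix and cytoskeletal gene lists held multi-block peaks in a large share of their genes, beside 13.1% of all named genes. A gene with many peaks has more chances to hold one, and the number of peaks per gene was not matched. The fold medians given for multi-block and 1-block peaks of a list were not matched for peak length either. Over all interior peaks, weighting to equal lengths turned the fold difference to -0.66. Per interior peak, the multi-block share was 25% in the laminin list and 20.6% in the filamin list. Genes other than collagens had 9.03%. High shares were not particular to these lists, with 25.9% for glycolysis and lipid enzymes and 21.1% for proteasome subunits. Cytosolic ribosomal proteins had 2.5%. In the list of laminins, basement membrane and microfibril proteins, 9 of 12 genes with a peak (75%, interval 46.8 to 91.1) had 23 multi-block peaks, with a median fold of 5.61 against 3.21 for 30 interior 1-block peaks of the list. HSPG2, the proteoglycan perlecan, had 6 of them from 1.73 to 13.4-fold. AGRN reached 10.3 and the laminin chain gene LAMA5 17.6. FBLN1, the matrix glycoprotein fibulin, had peaks of 11.3 and 8.48-fold. Of filamin, spectrin, plakin and myosin genes, 14 of 18 (77.8%, interval 54.8 to 91) had 26 such peaks, median 4.48 against 3.82. MYH14, a nonmuscle myosin gene, reached 8.88, the cytolinker gene PLEC 6.96 and MYH9 6.11. None of these 26 peaks reached 10-fold.

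Receptors and motors held them at intermediate shares of their genes. Per interior peak, the shares were 9.82% for the receptor list, 17.1% for plexins and integrins and 17.9% for kinesins and dyneins. The receptor list was thus near the 9.03% of genes other than collagens. Fold medians of these lists were again not matched for peak length. In the list of LDL receptor family, Notch and other EGF-repeat receptors, 7 of 16 genes had 11 multi-block peaks, median 5.65 against 3.88, led by the Notch ligand gene JAG2 (18.6) and the cadherin gene CELSR3 (11.8). Of plexins and integrins, 4 of 12 genes had 7 peaks, median 4.45 against 4.64, and all 4 were plexins, the semaphorin receptors. PLXNA1 had 7.05, PLXNA3 5.86, PLXNB2 4.45 and PLXND1 3.45. Of kinesin and dynein genes, 6 of 16 had 10 peaks, median 5.11 against 3.75, with 27.3 in the axonal motor gene KIF1A and 9.18 in the dynactin gene DCTN1.

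Among the listed metabolic genes, FASN and ACLY of fatty acid synthesis had the most multi-block peaks. In the list of glycolysis and lipid enzymes, 7 of 19 genes had 15 multi-block peaks, median 5.78 against 3.16 for 28 interior 1-block peaks. These medians were not matched for peak length. Per interior peak, the multi-block share of the list was 25.9%. FASN, fatty acid synthase, had 5 peaks of 3.71, 4.67, 6.15, 7.42 and 8.56-fold, and its only interior 1-block peak had 4.75. ACLY, which makes acetyl-CoA for that pathway, had 4 peaks of 1.64 to 6.09. The phosphofructokinase gene PFKL reached 11.4. TPI1, triosephosphate isomerase, had a peak of 10.9-fold with blocks of 2, 85 and 64 bp and a summit of 70.3 in its 85 bp block. VARS2, the mitochondrial valyl-tRNA synthetase gene, had 4 multi-block peaks of 1.52, 18.1, 3.06 and 1.5-fold along its span. The single summit of the gene lay in the 18.1-fold peak.

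Housekeeping gene lists differed in their shares. Per interior peak, the multi-block share was 2.5% for ribosomal proteins, 4.17% for chaperonins and other folding proteins and 5.17% for splicing factors. It was 21.1% for proteasome subunits and 13.5% for translation factors. MCM helicase and DNA polymerase genes and intermediate filaments had 9.09% each. Of cytosolic ribosomal protein genes, 1 of 46 with a peak had a multi-block peak, RPS4X at 3.68-fold (2.17%, interval 0.385 to 11.3), against 13.1% of all named genes. In the list of chaperonins, heat shock proteins and other folding proteins, 1 of 21 genes had one (4.76%, interval 0.846 to 22.7). It was PDIA6, a protein disulfide isomerase gene, at 7.61. Of splicing factor and hnRNP genes 3 of 29 had one (10.3%, interval 3.58 to 26.4), HNRNPK at 15.6, SF3B3 at 12.7 and PTBP1 at 2.66. Proteasome subunits had 4 of 19 (21.1%, interval 8.51 to 43.3), with PSMC4 highest at 5.52, and translation factors 5 of 23 (21.7%, interval 9.66 to 41.9), with EIF6 highest at 9.13. Of MCM helicase and DNA polymerase genes 2 of 8 had one (25%, interval 7.15 to 59.1), MCM2 at 16.3 and POLD1 at 5.33. Besides NES, the intermediate filament list held the nuclear lamina genes LMNA at 5.26 and LMNB1 at 1.78. These counts describe the lists, and exon number and expression level of the genes were not used here.

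The labelled cell type could be checked only through genes with a peak. Of 8 ductal and epithelial markers, 6 had a named peak (KRT8, KRT18, KRT19, EPCAM, MUC1 and SOX9), as did 2 of 5 mesenchymal markers, 0 of 5 acinar, 0 of 4 endocrine, 0 of 3 endothelial and 1 of 4 immune markers (CD68). None of these markers had a multi-block peak, beside 13.1% of all named genes. The markers with a peak were too few for this to tell them apart from other genes.

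Multi-block peaks also lay earlier in their gene spans than 1-block peaks. By the block rule they cannot lie within 1 uninterrupted stretch, such as a long last exon. How far this rule sets their position was not tested. Distances were taken along the genome and include introns. Their midpoint had a median of 63.6% of the gene span before it, against 76.5% for 1-block peaks. The median distance was 17394 bp to the 5′ end and 10631 bp to the 3′ end for multi-block peaks, and 15980 bp and 4186 bp for 1-block peaks. The FDR deposited with multi-block peaks had a median of 0.000759, against 0.00162 for 1-block peaks, and 94.4% against 87.3% had an FDR of 0.01 or less. Peaks of a gene could share an FDR while their folds differed, as in COL5A2, where 4 peaks of 1.69, 2.68, 2.86 and 5.75-fold all had 6.31e-06.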

How the data were processed

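RNA of 6 libraries (4 m1G precipitates and 2 inputs) was summarised by the authors in 2 deposited peak lists of the whole series. Per the submitters' processing notes, MACS2 2.2.5, STAR 2.7.1, featureCounts, ChIPseeker, bedtools, Picard, SAMtools, DESeq2 and edgeR were among the tools, and the build was GRCh38. Settings, and the libraries that entered the calls, are not stated in the labels. The MACS2 list gives 6264 summits, each with a deposited −log10 score of a p-value or q-value. The MeTDiff list holds, as deposited, the blocks, the p-value, the FDR on a log10 scale and the fold of each peak, a ratio taken as precipitate over input from the column order. No read counts are in these lists, so depth per library is unknown.

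Peaks were read with Python 3.11.15 and pandas 2.3.3. An Ensembl ID took the name of the RefSeq gene (GRCh38.p14) whose span alone, on a strand not opposed, overlapped all its peaks. This named 7112 of 8386 IDs and 16275 peaks, while 647 IDs matched several genes, 411 none and 216 came second to another ID. Shares have 95% Wilson intervals and medians order-statistic intervals. No test between peak classes was made, since peaks are not replicates. Programs were tested on simulated data.

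Multi-block peaks and the 16 gene lists were chosen with earlier results of these data known. Genes named are the 10 largest folds, 8 peaks with most blocks, 5 largest gaps, 6 shortest internal blocks, 8 genes with most such peaks, 6 highest summits, NES, TRMT5, up to 4 genes per list and 4 peaks at the distance limit. Other collagens, RAD52 and MAD1L1 were added after their values were seen. A few genes that the rule names in several parts are given once. Some genes that the rule names, and 1 of the lists, are not reported here. Alternatives changed the distance, block number, FDR limit, naming and weighting.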

Additional observations from a re-analysis of the deposited data

How the results depend on the processing

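Over 9 results and 20 settings, 80 alternative values were computed. Of these, 60 stayed within the interval of the reported value (gene numbers within 1.5 times), 17 moved beyond it and 3 changed direction. Weighting 1-block peaks to the lengths of multi-block peaks turned the fold difference from 0.76 to -0.66, the difference in the share of folds of 10 or more from 5.28 to -4.45 percentage points and the summit difference from 2.83 to -20.8 points. The weighted fold and share use more long 1-block peaks by construction. With 1 peak per gene, that of the largest fold, the differences were 0.12, 2.38 points and 0.312 points. A minimum of 4 blocks gave a share of the list of 1.37%, a fold difference of 1.81, differences of 12.3 points (folds of 10 or more) and 11.1 points (summits), 48.5% of internal blocks divisible by 3, median internal blocks of 96 bp, median gaps of 360 bp and 215 genes, against 932. The share of the list, 6.24%, became 24.95% with a minimum of 2 blocks, 6.62% at an FDR of 0.01 or less, 6.92% with the smallest gene span holding the peak and 5.04% without blocks under 10 bp, a setting added after seeing the data. Counting summits within 50 bp of a block gave a difference of 11.4 points. Without collagen genes, also added later, 38.1% of internal blocks were divisible by 3. No paired analysis was possible because the peak lists hold no value per library. Depth and replicate error are unknown, and a name is that of the gene span around a peak.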
